A study of Oryza sativa with 6 samples.

Results

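H3K9me1-only peaks were the H3K9me1 peaks of rice leaves that shared no base with a peak of any of the other 5 histone marks of the study, which are H3K4ac, H3K9ac, H3K27ac, H3K27me3 and H3K9me3. They were selected on the measured positions of the peaks, so the absence of other marks is the rule and not a result. Of the 5002 H3K9me1 peaks, 3446 met the rule, or 68.9% (95% Wilson interval 67.6 to 70.2%), out of 82347 peaks in the 6 lists together. The chromatin came from leaves of Nipponbare seedlings that were 2 weeks old and raised in a greenhouse, with no treatment named. There was 1 ChIP-seq library for each antibody and no replicate. A peak is a region in which reads of the immunoprecipitated DNA piled up, and its score is the value that the authors' peak caller gave it. The chromatin came from many cells, so a mark in fewer cells and less of the mark in each cell cannot be told apart. Marks listed at one place need not lie in the same cells. Intervals in the text are 95% intervals that cover counting error only, the read depth is unknown, and no test across seedlings could be made. Positions are those of the lists with 1 added to each start, so that the first and the last base of a peak are named. No genome build is stated for the lists, and no gene or DNA sequence was therefore assigned to a peak.

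Methylation of lysine 9 of histone H3 is written in plants by methyltransferases of the SUVH family, and H3K9 methylation is best known from transposons and heterochromatin, where it is coupled to DNA methylation. That is a general statement, and it need not hold alike for H3K9me1 and H3K9me3. Acetylation of H3K4, H3K9 and H3K27 is laid down by histone acetyltransferases and is known from the promoters and gene starts of transcribed genes. H3K27me3 is written by Polycomb repressive complex 2 and covers silent developmental genes. A single lysine 9 can carry either an acetyl group or methyl groups, and not both at once.

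The 3446 H3K9me1-only peaks covered 2.47 Mb, or 63.0% of the 3.91 Mb under all H3K9me1 peaks. The other 1556 H3K9me1 peaks fell into 3 classes. The class of 822 peaks (16.4%) overlapped H3K9me3 and neither acetylation nor H3K27me3, the class of 545 peaks (10.9%) overlapped at least 1 acetylation mark, and the remaining 189 peaks (3.78%) overlapped H3K27me3 without acetylation. H3K9me3 was thus the mark that removed most peaks, since 20.2% of the H3K9me1 peaks touched it (19.1 to 21.3%), although its list was the shortest of the 5. H3K4ac was touched by 9.66%, H3K27me3 by 6.32%, H3K9ac by 6.12% and H3K27ac by 4.38% of the H3K9me1 peaks. For H3K9ac and H3K27ac nearly all of these also touched another mark, and only 13 and 9 peaks were kept out by H3K9ac or H3K27ac alone.

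At the limit of the rule, 11 H3K9me1-only peaks lay within 10 bp of another mark and 10 of the remaining H3K9me1 peaks were kept out by an overlap of at most 10 bp. The closest H3K9me1-only peaks were those on chromosome 1 from 39635711 to 39636179, with a score of 53.2, and on chromosome 6 from 226664 to 227189, with a score of 61.8. Each lay 1 bp from an H3K4ac peak. Just outside, the H3K9me1 peak on chromosome 6 from 9262605 to 9263186, with a score of 87.5, shared 1 bp with an H3K4ac peak.

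H3K9me1-only peaks were of slightly lower score than the whole H3K9me1 list, with their median at percentile 44.7 of its scores (quartiles 22.1 and 68.7). They were also only slightly narrower than that list, which had a median width of 672.0 bp. Their median width was 652.0 bp (interval of the median 644.0 to 662.0 bp), with quartiles of 534.0 and 813.0 bp and a range of 309.0 to 6183 bp. The median width was 709.5 bp for the H3K9me1 peaks with H3K9me3, 818.0 bp for those with acetylation and 657.0 bp for those with H3K27me3. The interval for the class with H3K27me3, 634.0 to 686.0 bp, contained that of the H3K9me1-only peaks. The median score of the H3K9me1-only peaks was 64.3 (63.6 to 65.2), with quartiles of 56.1 and 81.2 and a highest value of 278.3. Of them, 36.9% scored under 60, close to the lowest listed score of 50.0. The median score was 75.2 with H3K9me3 (72.0 to 77.7), 85.5 with acetylation (81.0 to 89.7) and 69.3 with H3K27me3 (64.3 to 76.3). Scores of at least 300 were held by 36 of the H3K9me1 peaks with acetylation, whether or not they also touched H3K9me3. Such scores were also held by 1 peak with H3K9me3 but neither acetylation nor H3K27me3. They were held by 0 of the H3K9me1-only peaks and by 0 of the 189 with H3K27me3 but no acetylation. A wider peak has more bases with which to touch another peak, so width is not independent of the rule, and the differences between the classes were not tested.

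**Figure D1:**
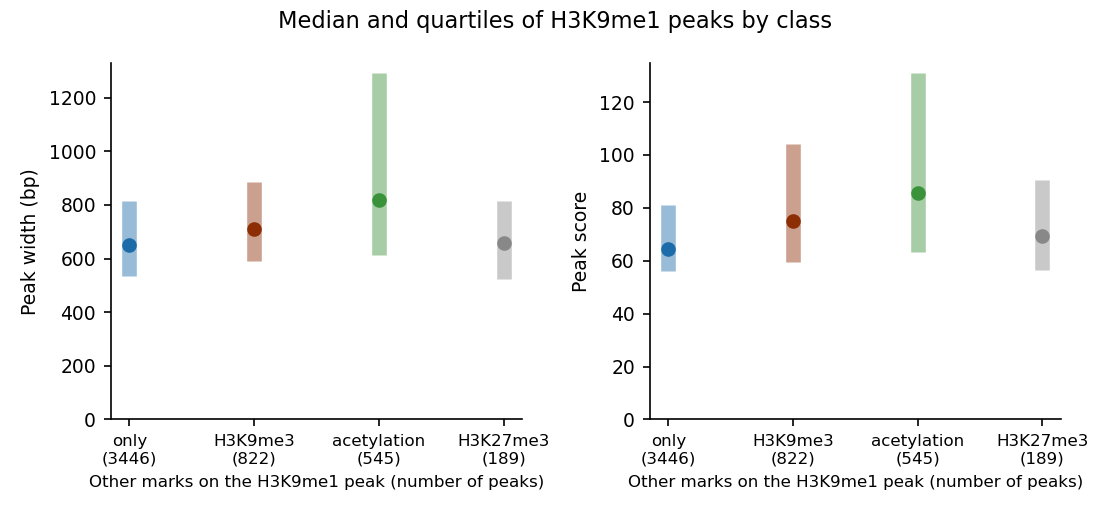
Width in bp (left) and score (right) of the H3K9me1 peaks in 4 classes by the other marks that they overlapped; points are medians, bars run from the lower to the upper quartile, and the number of peaks stands below each class. The H3K9me1-only peaks have the lowest median score, at 64.3, and their upper quartile of 81.2 lies below the median of the acetylated class at 85.5.

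The share of H3K9me1-only peaks was lower among H3K9me1 peaks of high score. In 10 similar-sized groups of the H3K9me1 peaks from low to high score, 77.8% of the lowest group had no other mark (74.0 to 81.3%), 76.2% of the fifth (72.3 to 79.7%) and 38.3% of the highest (34.2 to 42.7%). The share was nearly level over the lower 5 groups, between 75.2% and 77.8%, and most of the decline lay in the upper groups, with 66.8% in the eighth and 58.4% in the ninth. The overlap with acetylation was 6.19% in the lowest and 31.1% in the highest group, and that with H3K9me3 alone 11.2% and 26.7%. The overlap with H3K27me3 without acetylation stayed between 2.40% and 4.79%. None of the 10 H3K9me1 peaks of highest score, 4 of the highest 50 and 21 of the highest 100 had no other mark. Without the H3K9me3 list, 65.1% of the highest group had no other mark. When H3K9me1 peaks scoring under 100 were left out, the 879 remaining peaks were split into 10 groups again. The highest of these smaller groups had 13.6% (7.98 to 22.3%), and it is not the group that gave 38.3%. By width the share ran from 75.6% with no other mark in the narrowest group of 10 (71.7 to 79.2%) through 68.6% in the fifth to 47.5% in the widest (43.2 to 51.9%).

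**Figure D2:**
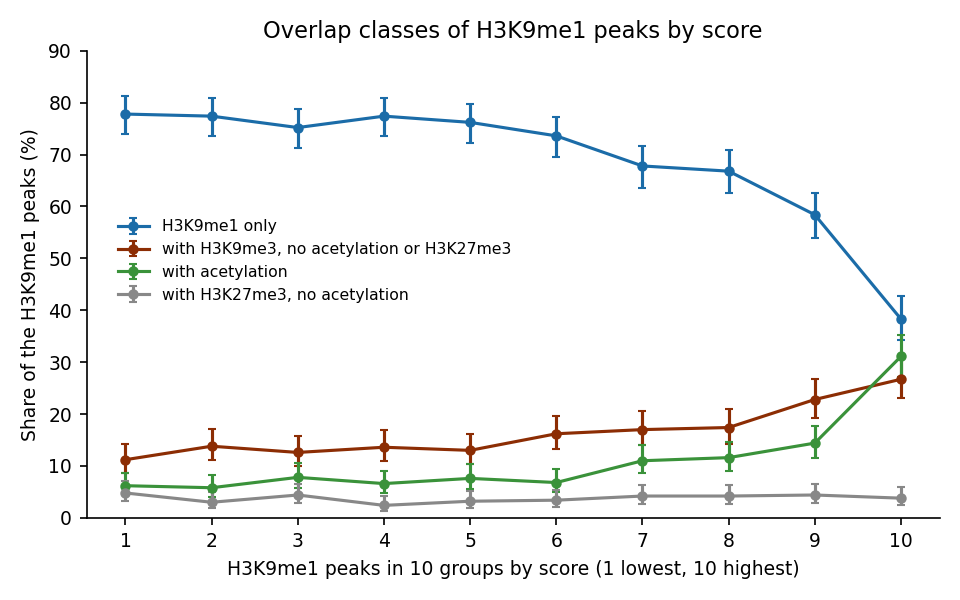
Share in percent of the H3K9me1 peaks that fell into each overlap class, for 10 groups of H3K9me1 peaks from the lowest to the highest score; bars are 95% Wilson intervals. The share without any other mark is 77.8% in the lowest and 38.3% in the highest group, while the share with acetylation is 6.19% and 31.1%.

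The 5 H3K9me1-only peaks of highest score lay on 5 chromosomes. The first was on chromosome 3 from 36007971 to 36008961, with a score of 278.3 and rank 40 in the H3K9me1 list, and an H3K4ac peak lay 99.0 bp away. The next, on chromosome 2 from 35168928 to 35170059, scored 276.3 and lay 4041 bp from the nearest H3K4ac peak. The peak on chromosome 6 from 31175519 to 31177280 scored 271.4 and lay 1520 bp from H3K4ac. The peak on chromosome 1 from 41171055 to 41172564 scored 265.7, with H3K27me3 as its nearest mark at 4092 bp. The last, on chromosome 12 from 10829178 to 10830559, scored 239.5 and had H3K9me3 as its nearest mark, at 4631 bp. The first 4 of these lay 15752 bp or more from any H3K9me3 peak.

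Among the H3K9me1-only peaks, those of a score of at least 100 numbered 403, or 11.7%. Their median width was 888.0 bp, against 627.0 bp for the 3043 of lower score. They lay nearer to other marks, at a median of 1418 bp against 1867 bp. An acetylation peak lay within 1 kb of 36.0% of them (31.4 to 40.8%) and of 25% of the lower-scoring ones (23.5 to 26.5%). H3K27me3 was the nearest mark for 16.4% of them (13.1 to 20.3%), against 26.1% (24.5 to 27.6%). Across the 3446 peaks, the score went with the width (Spearman's rho 0.47) and was nearly unrelated to the distance from the nearest other mark (rho -0.10). All of these peaks come from the same library, and the score and width of a peak are read from the same reads.

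Most H3K9me1-only peaks lay within a few kb of a peak of another mark. The stretches between neighbouring peaks of the 5 marks had a median length of 4983 bp, and no such share was computed for other positions in them. H3K9ac was found within 5 kb of 65.0% of them, H3K4ac within 5 kb of 64.6% and H3K27me3 within 5 kb of 32.5%. The median distance to the nearest peak of any other mark was 1822 bp (1719 to 1906 bp), and 33.3% had another mark within 1 kb, 81.6% within 5 kb and 94.0% within 10 kb. Only 54 lay more than 20 kb from every other mark. The nearest mark was H3K4ac for 56.8% of the H3K9me1-only peaks (55.2 to 58.5%), H3K27me3 for 24.9%, H3K9ac for 12.1%, H3K9me3 for 3.19% and H3K27ac for 2.93%. In comparison, H3K4ac held 32.9%, H3K27me3 16.8%, H3K9ac 34.5%, H3K9me3 3.83% and H3K27ac 12% of the 77345 peaks of the 5 lists. H3K4ac and H3K9ac were about equally far from the H3K9me1-only peaks, at medians of 2994 bp (2788 to 3209 bp) and 3026 bp (2841 to 3217 bp), whereas within 200 bp an H3K4ac peak was found for 5.69% and an H3K9ac peak for 2.21%. The H3K4ac peaks were wider, with a median of 1180 bp against 888.0 bp. The median distance was 10172 bp to H3K27me3, 11784 bp to H3K27ac and 43393 bp to H3K9me3, in the order of the lengths of these lists, which held 12959, 9309 and 2959 peaks.

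**Figure D3:**
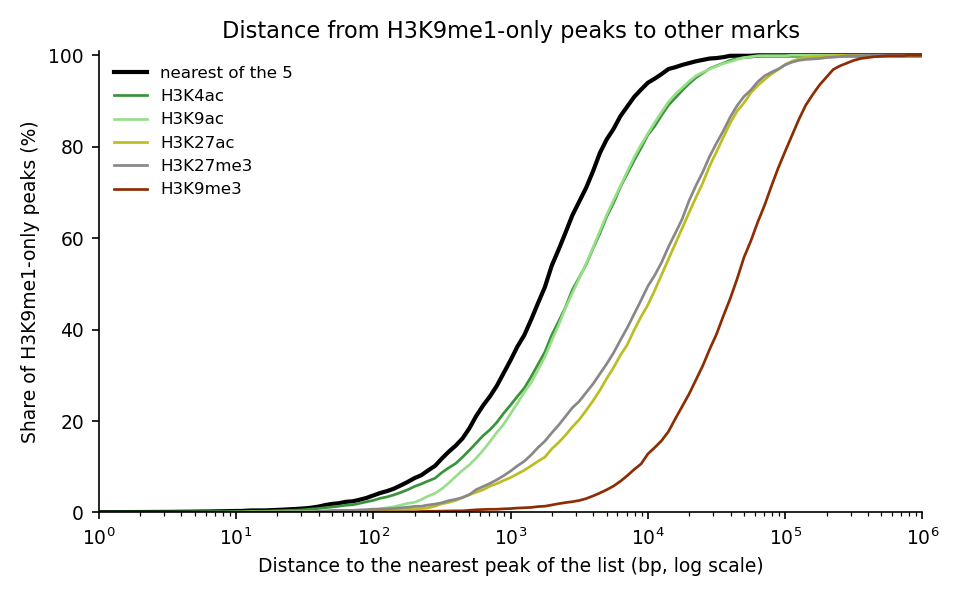
Cumulative share in percent of the 3446 H3K9me1-only peaks that had a peak of each other mark within the distance on the x axis (bp, log scale); the black line is the nearest peak of any of the 5 marks. The curves of H3K4ac and H3K9ac run together beyond 1 kb, with 23.5% and 21.6% of the peaks within 1 kb, and the curve of H3K9me3 lies farthest to the right, with 12.8% within 10 kb.

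The H3K9me1 peaks with H3K9me3 and those with H3K27me3 offered a comparison, since they too overlapped no acetylation. The distance to the nearest acetylation peak had a median of 2490 bp for H3K9me1-only peaks (2344 to 2613 bp) and of 2270 bp for those with H3K9me3 (2080 to 2445 bp), and the intervals overlapped. It was 3308 bp for those with H3K27me3 (2378 to 4403 bp). An acetylation peak lay within 1 kb of 26.3% of the H3K9me1-only peaks and of 25.4% of those with H3K9me3 and 24.9% of those with H3K27me3. More than 10 kb from any acetylation were 12.6% of the H3K9me1-only peaks (433 peaks), 9.49% of those with H3K9me3 (78 peaks) and 14.3% of those with H3K27me3 (27 peaks). The acetylation peaks within 1 kb of an H3K9me1-only peak, leaving out those that touched any H3K9me1 peak, ranked slightly above the middle of their own lists, with a median percentile of 57.1 for 836 H3K4ac peaks, 56.4 for 769 H3K9ac peaks and 56.0 for 259 H3K27ac peaks. The 310 H3K27me3 peaks near H3K9me1-only peaks had a median percentile of 56.9, and the 20 H3K9me3 peaks one of 40.8.

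The peaks of the 5 other marks left 40413 gaps with a total of 306.0 Mb, and 3445 of the H3K9me1-only peaks lay inside 3176 of them, or 7.86% of the gaps. In 2922 gaps there was a single H3K9me1-only peak, in 254 there were more, and the highest number was 4. Gaps that held an H3K9me1-only peak had a median length of 10247 bp, against 4983 bp for all gaps, and a longer gap has more room for a peak. The distance of a peak's midpoint from the nearer edge of its gap had a median of 0.247 of the gap length. Points placed evenly along a gap would give 0.25. The midpoint of a whole peak cannot reach the edge of its gap, so evenly placed peaks would give more than 0.25. That value was not computed, and 0.247 does not show that the peaks were evenly placed. The share of gaps with a peak was larger for longer gaps, from 1.93% of gaps of 1 to 2 kb (1.55 to 2.41%) to 37.1% of gaps over 50 kb (31.3 to 43.2%). Per Mb of gap, however, H3K9me1-only peaks had their highest value in gaps of 2 to 5 kb, at 13.6 (12.5 to 14.8), and less so in longer gaps, at 11.8 in gaps of 10 to 20 kb (11.1 to 12.5), 9.14 in gaps of 20 to 50 kb (8.46 to 9.86) and 6.25 in gaps over 50 kb (5.17 to 7.48). A whole peak has to fit into a gap, which by construction lowers the number in the shortest gaps.

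**Figure D4:**
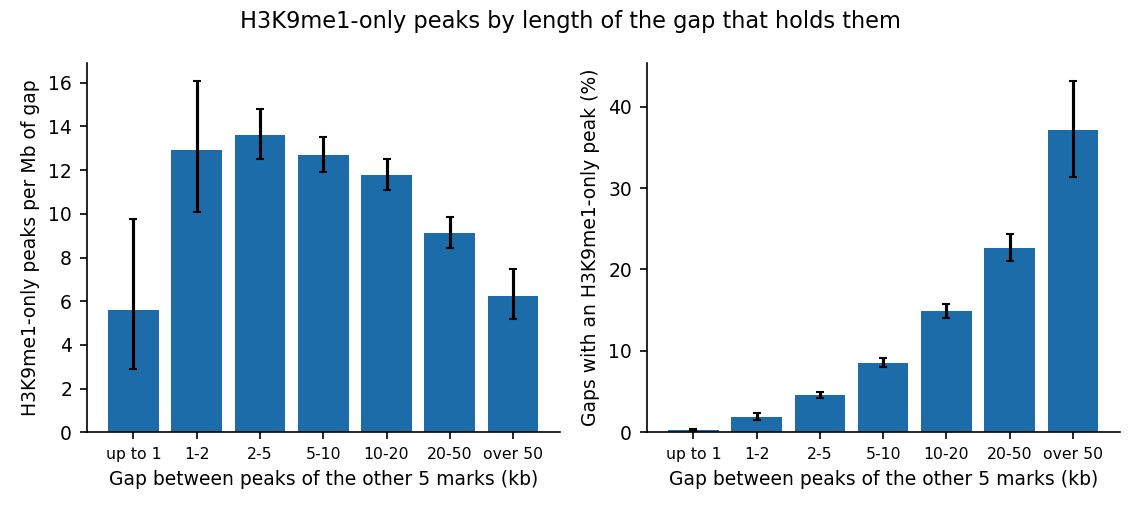
Number of H3K9me1-only peaks per Mb of gap (left, with exact Poisson intervals) and percent of gaps that held at least 1 such peak (right, with Wilson intervals), by the length in kb of the gap between peaks of the other 5 marks. The number per Mb is 13.6 in gaps of 2 to 5 kb and 6.25 in gaps over 50 kb, while the share of gaps with a peak is 4.61% and 37.1%.

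Gaps with different marks at their edges differed in the number of H3K9me1-only peaks between them. Gaps with acetylation at both edges held 1816 of the peaks, or 52.7%, at 12.1 per Mb (11.5 to 12.6). Gaps between acetylation and H3K27me3 held 1005 at 11.2 per Mb (10.5 to 11.9), and gaps with H3K27me3 at both edges held 324 at 11.5 per Mb (10.3 to 12.8), so these 3 kinds were close to one another. Gaps with H3K9me3 at one edge were less often occupied per Mb, at 8.08 with acetylation at the other edge (7.04 to 9.24) and 8.11 with H3K27me3 (6.34 to 10.2). An H3K9me1 peak next to an H3K9me3 peak is lost from the count as soon as it touches it, and the part of this in the lower numbers was not tested.

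Along the chromosomes H3K9me1-only peaks differed little in number. There were 9.23 per Mb over 373.2 Mb, with each of the 12 chromosomes measured up to its last listed peak. The number per Mb lay between 8.34 on chromosome 9 (7.21 to 9.61) and 9.99 on chromosome 8 (8.86 to 11.2), and the intervals of all chromosomes overlapped one another. The share of a chromosome's H3K9me1 peaks that had no other mark ran from 64.4% on chromosome 9 (58.8 to 69.6%) to 71.9% on chromosome 7 (67.0 to 76.2%). Their median score was between 62.0 on chromosome 7 and 66.8 on chromosome 3, and their median width between 634.5 bp on chromosome 1 and 678.5 bp on chromosome 11.

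The 368 whole bins of 1 Mb each held at least 2 H3K9me1-only peaks, with a mean of 9.22 ± 3.17 (SD over bins), a median of 9 and a highest number of 20. The variance was 1.09 times the mean. In the same bins this ratio was 1.21 for the H3K9me1 peaks with H3K9me3, 1.05 for all H3K9me3 peaks, 3.75 for H3K27me3, 6.15 for H3K4ac and 6.53 for H3K9ac. A ratio of 1 is that of independent counts with the same mean in every bin, and a longer list gives a higher ratio for the same unevenness, so the ratios of long and short lists are not on an equal footing. Over the bins the number of H3K9me1-only peaks had a Spearman's rho near 0 with that of H3K9ac (0.02), H3K4ac (0.02), H3K27me3 (-0.04), H3K27ac (-0.04) and all other H3K9me1 peaks (0.05). It was somewhat higher with H3K9me3 (0.12) and with the H3K9me1 peaks under H3K9me3 (0.18), and all of these are weak. Neighbouring bins share large parts of a chromosome arm and all bins come from the same libraries.

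When the bins were ordered by their H3K9ac peaks, those in the lowest of 4 equal groups, with at most 54 H3K9ac peaks, held 8.58 ± 2.99 H3K9me1-only peaks (SD over 92 bins), against 9.74 ± 3.03, 9.72 ± 3.19 and 8.85 ± 3.33 in the groups above it. These means are a description, and the differences between them were not tested. Of all H3K9me1-only peaks, 22.7% lay in the 25% of bins poorest in H3K9ac (21.4 to 24.2%), with the 12 incomplete bins at chromosome ends included. The share was close to that of the whole H3K9me1 list, at 22.5% (21.3 to 23.6%), and of all H3K9me1 peaks with another mark, at 21.9% (19.9 to 24.0%). For the H3K9me1 peaks with H3K9me3 it was 18.1% (15.6 to 20.9%), for all H3K9me3 peaks 24.0% (22.5 to 25.6%), for H3K27me3 18.3% and for H3K9ac itself 14.7%. The rule removes H3K9me1 peaks on acetylation and so favours acetylation-poor bins by construction.

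**Figure D5:**
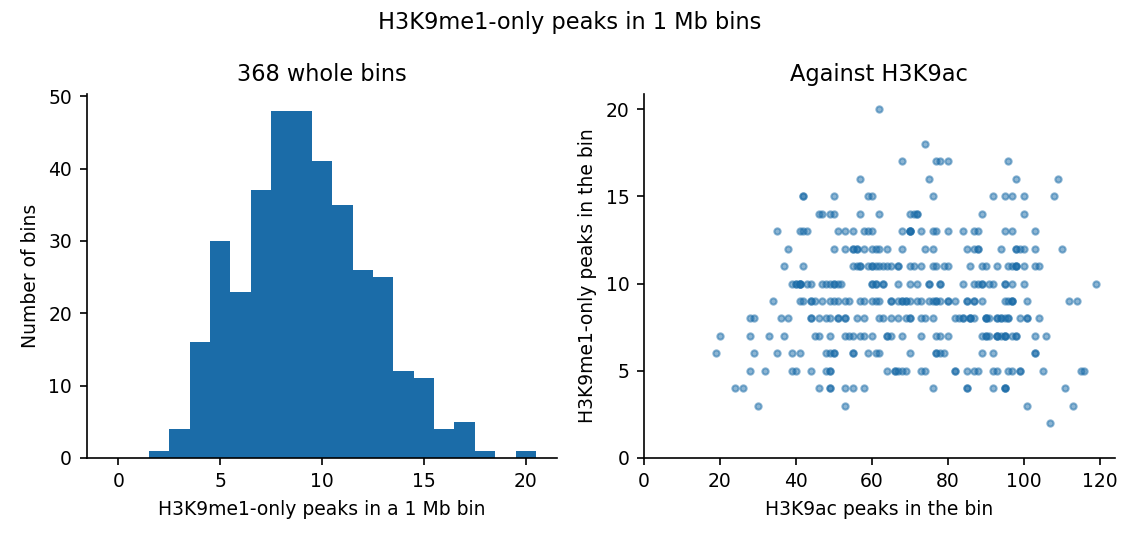
Number of bins by the H3K9me1-only peaks that they hold (left) and the number of H3K9me1-only peaks against that of H3K9ac peaks in each bin (right), for the 368 whole bins of 1 Mb. The bins hold between 2 and 20 H3K9me1-only peaks with a median of 9, and the points show no trend with H3K9ac (Spearman's rho 0.02).

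The bin with most H3K9me1-only peaks was on chromosome 11 from 4000001 to 5000000, where 20 of 24 H3K9me1 peaks had no other mark beside 60 H3K27me3 and 62 H3K9ac peaks. The bin on chromosome 8 from 21000001 to 22000000 followed with 18 of 24. The next number, 17, was reached by 5 bins, of which the first was on chromosome 1 from 9000001 to 10000000 with 17 of 23 H3K9me1 peaks. A stretch of chromosome 9, from 19306410 to 20354004, held 0 H3K9me1-only peaks over 1047595 bp, the longest such stretch between 2 of them. That stretch was chosen after its length was seen. It held 111 H3K9ac, 102 H3K4ac, 36 H3K27me3 and 7 H3K9me3 peaks, and 5 H3K9me1 peaks that all touched another mark.

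At a joining distance of 10 kb, most H3K9me1-only peaks stood alone. The median distance from one to the next was 37546 bp (35343 to 39343 bp), and 18.7% had another within 10 kb (17.4 to 20.0%). The share was 9.81% within 5 kb and 60.5% within 50 kb. Within 10 kb it was 3.07% when peaks scoring under 100 were dropped from every list. That setting left 652 H3K9me1-only peaks instead of 3446, and a sparser list has fewer neighbours within 10 kb by construction. When H3K9me1-only peaks of the complete lists within 10 kb were joined, 2802 stayed alone, 260 runs held 2, 37 runs held 3, and 3 runs held more. The longest run was on chromosome 6 from 14867096 to 14899092, with 5 peaks over 31997 bp. One of these, from 14882217 to 14883573, scored 154.3, and the others had scores of 96.1, 59.0, 54.4 and 50.4. A run of 4 on chromosome 2 from 13649603 to 13669182 had scores of 54.6 to 61.9, and another of 4 on chromosome 6 from 13404867 to 13413714 had scores of 51.6 to 61.4. The distance to the next H3K9me1 peak of any class had a median of 25824 bp for H3K9me1-only peaks (24699 to 27658 bp), 22630 bp for those with H3K9me3 (20902 to 25155 bp) and 17207 bp for those with acetylation (14250 to 19627 bp).

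Wide H3K9me1-only peaks were few. A width of 2 kb or more was reached by 19 of 3446, or 0.551%, against 5 of 822 (0.608%) with H3K9me3 and 82 of 545 (15.0%) with acetylation. The wide H3K9me1-only peaks lay on 10 chromosomes and had a median score of 83.5, against 64.3 for all H3K9me1-only peaks. Of the 19, 4 scored at least 100, as did 11.7% of all H3K9me1-only peaks. The widest, on chromosome 12 from 16631568 to 16637750, was 6183 bp wide and scored 56.4. The next, on chromosome 10 from 8124173 to 8130091, was 5919 bp wide and scored 64.9, and the third, again on chromosome 12 from 16607589 to 16613388, was 5800 bp wide and scored 97.8. The peaks on chromosome 12 each lay next to an H3K4ac peak, at 350.0 and 333.0 bp.

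The most isolated H3K9me1-only peak was on chromosome 7 from 12164606 to 12166023, 158870 bp from the nearest other mark, an H3K4ac peak. It was 1418 bp wide with a score of 66.2, and the next H3K9me1-only peak was 120246 bp away. The peak on chromosome 4 from 10210157 to 10211307 lay 59268 bp from H3K4ac and scored 63.1. The peak on chromosome 5 from 10030709 to 10031439 lay 50288 bp from H3K9me3 and scored 57.4. All 3 had scores near or below the median of 64.3, so the peaks farthest from other marks were not among the strongest.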

How the data were processed

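Peak lists of 6 ChIP-seq libraries, 1 per mark, were used as the authors deposited them. The authors' score is their peak caller's value for each peak. The caller, MACS 1.4 by the name of the deposited lists, writes -log10 of a p-value multiplied by 10. The lowest score of 50.0 would then stand for a p-value of 1e-05. The labels list Bowtie, and peak calling settings, control library and the build used for these lists are not given in the sources used here. The study names the TIGR rice annotation for its gene pairs. Depth is unknown. Peak names run without a break in every list.

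An H3K9me1 peak was a member if it shared no base (minimum overlap 1 bp) with a peak of the other 5 lists. Distances are bases between edges. Shares have 95% Wilson intervals, medians binomial rank intervals and numbers per Mb exact Poisson intervals. No hypothesis test was made. Gaps are the bases between neighbouring peaks of the other 5 marks. The overlap, distance and merging functions were tested on simulated lists. Regions were named by rule: the 5 of highest score, the 3 widest, the 3 most isolated, those nearest to another mark and the bins with most members. The longest stretch, the runs and the chromosome 12 layout were picked with their values in view. Genes and sequences were not analysed here, because no genome was at hand and the gene table at hand is of another assembly. Members, lists and classes were chosen with earlier results of these data known. Alternatives were a score of at least 100 (in every list or for H3K9me1), an overlap of 50% of the shorter peak, no peak within 1000 bp, merging below 200 bp, leaving out each list, and other joining distances and bins. Computation used pandas 2.3.3, scipy 1.17.1 and numpy 2.4.6 under Python 3.11.15, and plots used matplotlib 3.10.9.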

Additional observations from a re-analysis of the deposited data

How the results depend on the processing

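No paired analysis was possible because every mark had a single library, and lists rather than replicates were left out. Of 85 values under alternatives, 46 stayed within 1.5 times the main count or within the interval of the main value, and 39 did not. No cause of these changes was tested, beyond what the settings fix themselves.

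With a score of at least 100 in every list, 652 H3K9me1-only peaks were left. Their median width was 900.5 bp and their median score 121.6. Of the highest of 10 score groups, drawn again from the H3K9me1 peaks kept, 28.4% were H3K9me1-only. Below, the share in the highest-scoring group means this percentage. The median distance was 2157 bp, 3.07% of the H3K9me1-only peaks had another within 10 kb and 15.5% lay in acetylation-poor bins. With that minimum for H3K9me1 alone, the values in the same order were 403, 888.0 bp, 119.5, 13.6%, 1418 bp, 2.98% and 17.9%. The share of all H3K9me1 peaks was 74.2% in the first setting and 45.8% in the second, above and below the 68.9% of the complete lists. With an overlap of 50% of the shorter peak, the share in the highest-scoring group was 44.5% and the median distance 1624 bp. With no other peak within 1000 bp, the median width was 664.5 bp, the median score 63.4, the share in the highest-scoring group 22.2%, the median distance 3005 bp, the share with another within 10 kb 13.6% and the share in acetylation-poor bins 25.1%. After merging, 17.2% had another within 10 kb. Joining at 5 kb gave 9.81% and joining at 50 kb 60.5%. The other bin sizes and the order by H3K4ac moved nothing beyond the interval.

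With each of the 5 lists left out in turn, the median width ran from 652.0 to 663.0 bp, the median score from 64.3 to 65.9, the share in the highest-scoring group from 38.3% to 65.1%, the median distance from 1833 to 2434 bp and the share with another within 10 kb from 18.8% to 21.3%. Without the H3K9me3 list 4268 peaks, or 85.3%, had no other mark, and the highest-scoring group had 65.1%. The unknown depth limits any statement on absent marks: a peak below another list's threshold counts as absent.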

Other observations

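On chromosome 12 the neighbourhoods of the widest and the third widest H3K9me1-only peak had the same layout, a place chosen after its values were seen. The peak from 16607589 to 16613388 and the peak from 16631568 to 16637750 began 23979 bp apart. All 8 peaks of 5 marks found from 3000 bp before the first of these to 7000 bp behind it had a counterpart around the second, at start offsets of 23521 to 23992 bp. The 8 include the H3K9me1 peak itself, whose match was fixed by the choice of the pair. Farther from the first, peaks of H3K4ac, H3K9ac and H3K27ac between 16595052 and 16596378 had no counterpart at such an offset. The H3K27me3 peak from 16605634 to 16607194 (1561 bp, score 412.0) was matched by that from 16629626 to 16631183 (1558 bp, score 432.6). The H3K9ac peak from 16616439 to 16618849 (score 995.8) was matched by that from 16640416 to 16643115 (score 907.5). The H3K9me1 peaks themselves differed more in score, at 97.8 and 56.4, and an H3K9me1 peak from 16643420 to 16644822, with a score of 61.2, had no counterpart. Whether the underlying sequence is repeated was not tested.

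Allowing for the room that a peak of the median width of 652.0 bp needs, the number of H3K9me1-only peaks per Mb of gap was lower in each longer class of gap, from 22.8 in gaps of 1 to 2 kb (17.9 to 28.5) through 14.0 in gaps of 5 to 10 kb (13.2 to 14.9) to 6.30 in gaps over 50 kb (5.22 to 7.55). The gaps of up to 1 kb, with 12 peaks, gave 52.0 (26.9 to 90.8), a value from few peaks. Gaps shorter than 652.0 bp counted as having no room, although narrower peaks fit into them, which raises that value by construction. This measure was added after seeing the data.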
